A study of Mus musculus with 56 samples.

Results

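The 10 genes described here encode proteins that coat lipid droplets in the liver, make them larger, or take fat out of them. They were chosen by name and not by a rule on measured values, though with earlier results of these data known. The genes are the lipases Lipe and Pnpla2 with the inhibitor G0s2, the perilipins Plin2, Plin4 and Plin5, the CIDE genes Cidea, Cideb and Cidec, and Hsd17b13. They are 10 of the 52230 genes to which reads were assigned, and the estimated reads of all transcripts of a gene were summed.

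RNA was sequenced from the livers of 56 male mice whose glucokinase regulatory protein (GKRP, gene Gckr), the inhibitor that holds glucokinase in the nucleus, carried proline (P) or leucine (L) at residue 446. All mice, the PP controls included, were kept on a high-fat high-sugar diet. Each genotype was studied without a glucokinase activator (10 PP, 8 PL and 10 LL mice) and after the activator (GKA) at 3 mg/kg (again 10 PP, 8 PL and 10 LL mice). Whether the mice without GKA received a vehicle is not stated in the labels. The labels give no age, litter or time of harvest, and do not say how long before harvest GKA was given. PP mouse 7 entered no comparison, so PP without GKA had n = 9. The libraries held 5.18 to 8.08 Mreads (reads assigned to genes, in units of 1e6). The hepatocyte genes Alb, Apoa1, Ttr, Cyp2e1 and Serpina1c, together had 62592 to 138351 CPM (reads per 1e6 assigned reads) in the 55 livers. The fat-cell hormones Adipoq and Lep had 0 reads in all 56 livers, and Plin1 and Retn had at most 1 read in a liver. Adrb3, a receptor gene of fat tissue, had 0.15 to 4.45 CPM.

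Hepatocytes store surplus fatty acids as triglyceride in lipid droplets. Perilipins sit on the droplet surface and control access to the fat, while CIDE proteins pass lipid between droplets that touch, which makes droplets larger. Stored triglyceride is opened by adipose triglyceride lipase (Pnpla2), the next fatty acid is taken off by hormone-sensitive lipase (Lipe), and G0s2 binds adipose triglyceride lipase and blocks it. In fatty livers Cidea, Cidec and Plin4, which are otherwise genes of fat tissue, are known to come on. In bulk tissue, fewer cells of a type and less RNA per cell cannot be told apart.

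Per transcript length, Plin2 was the most abundant of the 10 genes, with a median TPM (a share of transcripts, corrected for length) of 665 over the 55 livers. Cideb (179 TPM), Hsd17b13 (164 TPM) and G0s2 (157 TPM) followed, with ranges that overlapped widely. Pnpla2 had a median of 14.3 TPM and Plin5 of 11.4 TPM, and they too overlapped. The medians were lowest for Cidec (4.01 TPM), Lipe (2.42 TPM), Cidea (1.59 TPM) and Plin4 (0.70 TPM). Cidea ranged from 0 to 72.8 TPM and Cidec from 0 to 87.5 TPM, ranges that include the medians of Pnpla2, Plin5, Lipe and Plin4.

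Gckr itself, the altered gene, had a median of 172 CPM in PP and 144 CPM in LL without GKA, and of 167 CPM in PP and 152 CPM in LL with GKA. Over both GKA arms it was lower by LL genotype with a log2 fold change of -0.21 (SE 0.06, edgeR adjusted p = 0.0325), a change smaller than the limit for a call. Gene-level reads do not show which residue a mouse carried.

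The genotypes differed in the lipases and G0s2. Without GKA, Lipe (chromosome 7, 25078880 to 25098135, GRCm39, minus strand) had 4.39, 5.13, 6.03, 6.33, 6.36, 6.42, 6.70, 7.01 and 7.91 CPM in the PP livers. In PL it had 7.99, 9.06, 9.92, 12.2, 13.6, 14.5, 14.5 and 14.7 CPM. All 8 PL livers lay above the highest PP liver. Such a lack of overlap was seen in 0.0755% of the genes tested between these groups (8 of 10592). In LL, Lipe was 5.36 CPM at the lowest, 10.3 CPM at the median and 17.3 CPM at the highest, a range that overlapped both PP and PL. With GKA the LL median was 9.38 CPM (5.41 to 13.8), the PL median 8.80 CPM (6.68 to 14.1) and the PP median 7.04 CPM (4.11 to 10.6), and all 3 groups overlapped. Lipe rests on 25 to 129 reads a liver, the fewest of the genes read in every liver.

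A gene was called where the adjusted p of edgeR's quasi-likelihood test was below 0.05 and the fold was above 1.3 or below 0.7, after the study's criterion. Lipe was called in PL against PP without GKA, with a log2 fold change of 0.94 (SE 0.14, edgeR adjusted p = 0.0123). It was the only gene called among the 9 of the 10 that could be tested there, where 0.151% of all genes were called. In LL against PP without GKA its log2 fold change was 0.71 (SE 0.18, edgeR adjusted p = 0.109). In LL against PP with GKA it was 0.47 (SE 0.17) and in PL against PP with GKA 0.43 (SE 0.17), with edgeR adjusted p of 0.285 and 0.502. Over both GKA arms, a fit with genotype and GKA as terms, Lipe rose by LL genotype with 0.58 (SE 0.13, edgeR adjusted p = 0.00348) and by PL genotype with 0.68 (SE 0.13, edgeR adjusted p = 0.00223). LL and PL themselves differed by -0.10 with a 95% interval of -0.35 to 0.15. The comparisons with PP share the PP livers.

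Pnpla2 (chromosome 7, 141034404 to 141040656, plus strand) ran from 17.9 CPM through a median of 26.3 CPM to 34.1 CPM in PP without GKA. In PL it ran from 27.5 through 34.3 to 46.0 CPM and in LL from 21.1 through 35.8 to 46.6 CPM. With GKA, the PP livers held 17.1 to 39.9 CPM (median 25.0), the PL livers 26.1 to 40.7 CPM (median 32.6) and the LL livers 22.5 to 47.0 CPM (median 34.0). The groups overlapped in both arms, with PP the lowest by median each time. Over both arms Pnpla2 rose by LL genotype with a log2 fold change of 0.41 (SE 0.10, edgeR adjusted p = 0.0062). The PL difference was 0.33 (SE 0.10, edgeR adjusted p = 0.0704).

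G0s2 (chromosome 1, 192949563 to 192956177, minus strand) had a median of 138 CPM in LL (63.6 to 231), 95.9 CPM in PP (47.6 to 191) and 123 CPM in PL (58.3 to 188) without GKA. With GKA the LL median was 157 CPM (82.9 to 338), the PP median 108 CPM (75.9 to 182) and the PL median 112 CPM (62.9 to 188). The groups overlapped, and LL had the highest median in each arm. Over both arms G0s2, the lipase inhibitor, rose by LL genotype with a log2 fold change of 0.59 (SE 0.18, edgeR adjusted p = 0.0452), and PL differed from PP by 0.12 with a 95% interval of -0.24 to 0.49. Leaving out any 1 of 23 of the 55 livers ended the G0s2 call (PP mice 1, 2, 3, 5, 8 and 9, PP with GKA mice 11, 12, 13, 14, 16 and 17, PL mouse 27, LL mice 37, 38, 39, 45 and 46, and LL with GKA mice 47, 49, 54, 55 and 56), with a log2 fold change of 0.51 to 0.66 and an adjusted p of up to 0.086 over all 55 omissions.

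**Figure D1:**
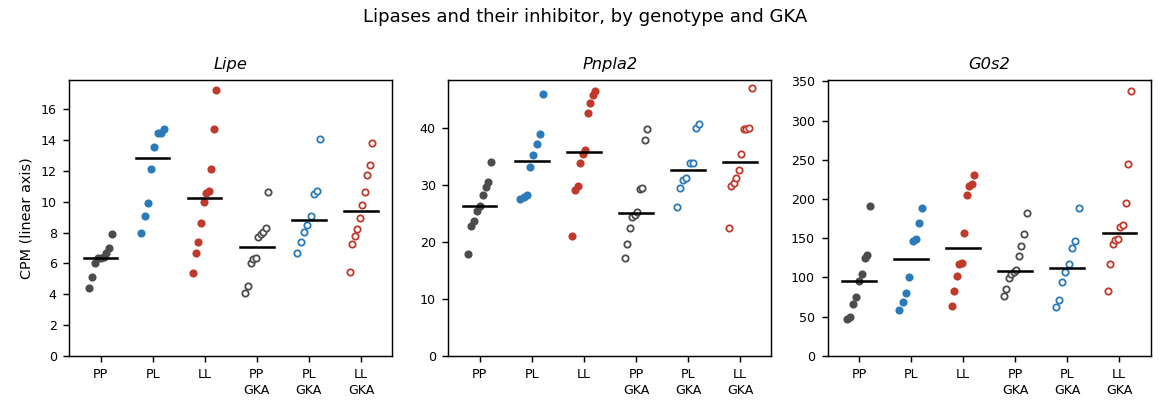
CPM (linear axis from 0) of Lipe, Pnpla2 and G0s2 in each of the 55 livers, by genotype and GKA (filled points without, open points with GKA), with a bar at the group median. The 8 PL livers without GKA lie at 7.99 CPM of Lipe or above and the 9 PP livers at 7.91 CPM or below, while the groups of the other panels overlap.

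The groups also differed in clock genes. The clock component, the first principal component of 16 clock genes (61.1% of their variance), had a mean of -0.63 ± 0.56 (SD, n = 9) in PP, 0.58 ± 0.80 (SD, n = 8) in PL and 0.52 ± 0.78 (SD, n = 10) in LL without GKA. With GKA the means were -0.89 ± 1.29 (SD, n = 10), 0.55 ± 0.54 (SD, n = 8) and 0.03 ± 0.75 (SD, n = 10). With this component as a covariate the LL difference over both arms was 0.40 for Lipe (edgeR adjusted p = 0.137) and 0.16 for Pnpla2 (adjusted p = 0.349), so that neither was called, while G0s2 had 0.75 (adjusted p = 0.0297). The PL difference over both arms was then 0.48 for Lipe (adjusted p = 0.150) and 0.01 for Pnpla2. Without GKA, the PL difference of Lipe was 1.16 with the covariate (edgeR adjusted p = 0.0185), against 0.94 without it. In fits added after seeing the data that left out each of the 17 livers in turn, it lay between 1.08 and 1.20, and the call was lost in 5 of 17, those without PP mouse 9 or 10 or PL mouse 21, 22 or 23 (edgeR adjusted p of 0.0518 to 0.203). Genotype and the hour of harvest cannot be told apart here, since no label gives the hour.

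Of all 10 genes, 3 (Lipe, Pnpla2 and G0s2) were called in LL against PP over both arms, all higher, where 1.7% of all genes tested were called (195 of 11477). The median log2 fold change of the 10 genes was 0.50 and that of all genes 0.00. With an offset for the average transcript length of each gene in each liver, none of the 3 passed, with log2 fold changes of 0.58 for Lipe, 0.48 for Pnpla2 and 0.75 for G0s2 (edgeR adjusted p = 0.57, 0.329 and 0.0532). Lipe did not pass in either PL comparison, with 0.70 over both arms and 1.10 without GKA (edgeR adjusted p = 0.347 and 0.549). Calls over all genes with this offset are not given here, so a loss in these genes cannot be told from a loss throughout. In PL against PP over both arms 1 of the 10 was called, Lipe, against 1.05% of all genes. There the median log2 fold change of the 10 genes was -0.002, with 5 higher and 5 lower. In LL against PL over both arms 0 of the 10 were called by edgeR or DESeq2, against 0.34% of all genes by edgeR, with 4 of the 10 and 8.82% of all genes at an unadjusted p below 0.05. These 4 were Cidec (1.12, SE 0.55), Plin4 (1.22, SE 0.52), G0s2 (0.46, SE 0.19) and Hsd17b13 (0.27, SE 0.13), all higher in LL. Within the arm without GKA, edgeR called 0 of the 10 in LL against PP, where 0.0854% of all genes were called and 4 of the 10 and 11.8% of all genes had an unadjusted p below 0.05, and DESeq2 called 1, Lipe (adjusted p = 0.0208). In LL against PL without GKA 0 of the 10 were called by edgeR or DESeq2 and 0 had an unadjusted p below 0.05, against 0.00942% of all genes called. With GKA, 0 of the 10 were called by edgeR or DESeq2 in LL against PP (0.239% of all genes by edgeR, with 3 of the 10 and 10.4% of all genes at an unadjusted p below 0.05), PL against PP (0% and 1 of the 10) and LL against PL (0% and 3 of the 10). Over all genes, 862 (8.19%) and 902 (8.60%) had an unadjusted p below 0.05 in the last pair of comparisons, and DESeq2 called 31 and 36. In LL against PL with GKA, Plin2 had a log2 fold change of 0.39 (SE 0.17), Plin5 of 0.42 (SE 0.19) and G0s2 of 0.60 (SE 0.24).

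**Figure D2:**
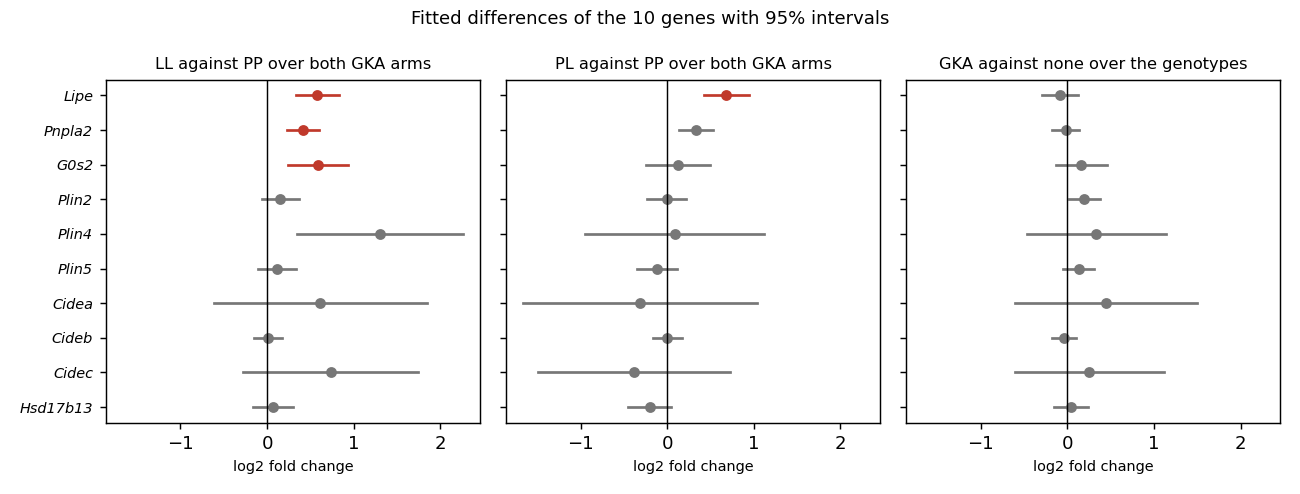
Log2 fold changes (points) of the 10 genes with 95% intervals (lines) from the edgeR fits over all 6 groups, for LL against PP, PL against PP and GKA against none; called genes are red. Lipe, Pnpla2 and G0s2 are called by LL genotype and Lipe by PL genotype, and the intervals of Cidea, Cidec and Plin4 are the widest.

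The upstream sequences of the called genes, and of Plin2 as the most abundant coat gene, are shown because Lipe, Pnpla2 and G0s2 were called together by LL genotype. RefSeq windows (GRCm38.p6) from 250 bases before to 50 bases after a gene's start were found for 9 of the 10 genes, 12 windows in all, with 2 starts each for Lipe, Plin5 and Cidec. The search, on both strands, was for the E-box CACGTG bound by clock proteins among others, the D-box TTATGTAA bound by Dbp and its relatives, the cAMP element TGACGTCA, the motif AGGTCA bound by nuclear receptors, and the PPAR motif, which repeats AGGTCA after 1 base. Capitals mark the matches found, CACGTG in start 1 of Lipe and in Plin2 and, reading the other strand, AGGTCA in Plin2.
Lipe, start 1 (chr7:25395938-25396237, minus strand): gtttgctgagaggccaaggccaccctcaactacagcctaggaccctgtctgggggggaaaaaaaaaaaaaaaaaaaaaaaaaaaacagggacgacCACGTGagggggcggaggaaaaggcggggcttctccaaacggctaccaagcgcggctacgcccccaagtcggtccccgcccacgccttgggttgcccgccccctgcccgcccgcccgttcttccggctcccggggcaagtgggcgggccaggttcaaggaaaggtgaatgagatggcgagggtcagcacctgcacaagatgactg
Lipe, start 2 (chr7:25390063-25390362, minus strand): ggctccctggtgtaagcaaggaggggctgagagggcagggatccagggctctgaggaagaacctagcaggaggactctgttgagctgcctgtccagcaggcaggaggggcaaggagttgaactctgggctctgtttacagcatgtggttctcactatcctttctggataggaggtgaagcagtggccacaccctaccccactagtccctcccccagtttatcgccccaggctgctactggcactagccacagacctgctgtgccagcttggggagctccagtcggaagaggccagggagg
Pnpla2 (chr7:141454938-141455237, plus strand): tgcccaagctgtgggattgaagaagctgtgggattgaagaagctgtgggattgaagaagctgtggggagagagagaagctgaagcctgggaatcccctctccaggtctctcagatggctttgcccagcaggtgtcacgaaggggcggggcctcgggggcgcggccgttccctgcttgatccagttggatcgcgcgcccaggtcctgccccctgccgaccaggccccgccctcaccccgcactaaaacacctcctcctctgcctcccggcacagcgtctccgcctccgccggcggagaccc
G0s2 (chr1:193273139-193273438, minus strand): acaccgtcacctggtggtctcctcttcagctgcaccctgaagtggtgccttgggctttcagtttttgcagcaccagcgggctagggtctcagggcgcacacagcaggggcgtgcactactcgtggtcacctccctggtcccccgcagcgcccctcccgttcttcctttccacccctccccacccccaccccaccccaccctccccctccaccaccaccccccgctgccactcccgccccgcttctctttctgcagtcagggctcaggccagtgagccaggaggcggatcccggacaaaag
Plin2 (chr4:86670010-86670309, minus strand): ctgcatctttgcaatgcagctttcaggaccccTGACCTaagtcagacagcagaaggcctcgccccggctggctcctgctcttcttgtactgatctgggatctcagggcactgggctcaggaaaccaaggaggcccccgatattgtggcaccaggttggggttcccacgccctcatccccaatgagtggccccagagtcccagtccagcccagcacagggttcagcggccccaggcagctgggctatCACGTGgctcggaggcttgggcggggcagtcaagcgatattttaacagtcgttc
CACGTG was in 2 of the 12 windows, at 155 bases before start 1 of Lipe and at 4 bases before the start of Plin2, and not in the window of the other Lipe start, against 7.15% of all 32851 windows. AGGTCA, a motif added after seeing the data, was in 4 of the 12, those of Plin2, Hsd17b13 and both starts of Plin5, against 16.3% of all windows, and it is contained in the PPAR motif. The PPAR motif with at most 1 mismatch (0.554% of all windows), the D-box (0.938%) and the cAMP element (1.79%) were in 0 of the 12. A match is a run of letters and not a measured binding site, and no match says only that these letters are not in the window.

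Cidea (chromosome 18, 67476317 to 67501224, plus strand), Cidec (chromosome 6, 113400691 to 113412721, minus strand) and Plin4 (chromosome 17, 56406617 to 56416931, minus strand) varied widely within each group. In PP without GKA, Cidea had 0, 0.14, 0.17, 0.28, 0.60, 1.05, 11.8, 14.3 and 17.2 CPM. In LL without GKA it had 0, 0, 0.46, 4.76, 7.80, 8.49, 14.3, 17.3, 18.7 and 19.5 CPM. Both groups held livers with almost no Cidea and livers with over 10 CPM, and the values in between came from LL alone of these groups.

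In PL without GKA Cidea ran from 0 through a median of 0.95 CPM to 19.8 CPM. With GKA it ran from 0 through 5.04 to 25.4 CPM in PP, from 0 through 0.78 to 21.6 CPM in PL and from 0 through 3.49 to 50.4 CPM in LL. The group medians differed by up to 13.6-fold, and each group nevertheless spanned from 0 to above 17 CPM.

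Cidec, whose protein fuses droplets, ran from 0.51 through a median of 3.34 to 32.4 CPM in PP, from 0 through 2.38 to 25.5 CPM in PL and from 0.69 through 17.2 to 42.8 CPM in LL without GKA. With GKA it ran from 0.14 through 12.7 to 40.6 CPM in PP, from 0.57 through 1.99 to 26.5 CPM in PL and from 1.05 through 10.5 to 63.2 CPM in LL. PL had the lowest median in each arm.

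Plin4 had a median of 18.8 CPM in LL (0 to 68.9), 5.10 CPM in PP (1.20 to 26.3) and 5.60 CPM in PL (0 to 35.2) without GKA. With GKA the LL median was 31.1 CPM (3.15 to 57.6), the PP median 5.71 CPM (0.87 to 45.4) and the PL median 4.11 CPM (0 to 41.5). LL had the highest median in each arm, with groups that overlapped. By LL genotype over both arms its log2 fold change was 1.31 (SE 0.49, unadjusted p = 0.00994 and adjusted p = 0.133 by edgeR), which was not called. Over both arms Cidea had 0.62 by LL genotype with a 95% interval of -0.62 to 1.85, and Cidec had 0.74 with an interval of -0.27 to 1.75. Plin4 exons overlap those of Hdgfl2 on the other strand, which had a median of 14.7 CPM and at most 18.9 CPM.

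At a limit of 10 CPM, set after seeing the values, 18 of the 55 livers had Cidea, 25 had Cidec, 24 had Plin4 and 14 had all 3 at or above it. Cidea was at or above 10 CPM in 3 of 9 PP, 2 of 8 PL and 4 of 10 LL livers without GKA, and in 4 of 10 PP, 2 of 8 PL and 3 of 10 LL livers with GKA. Plin4 was at or above it in 2 PP, 3 PL and 5 LL livers without GKA, and in 4 PP, 2 PL and 8 LL livers with GKA. Fewer than 3 reads were counted in 16 livers for Cidea, 3 for Cidec and 3 for Plin4.

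**Figure D3:**
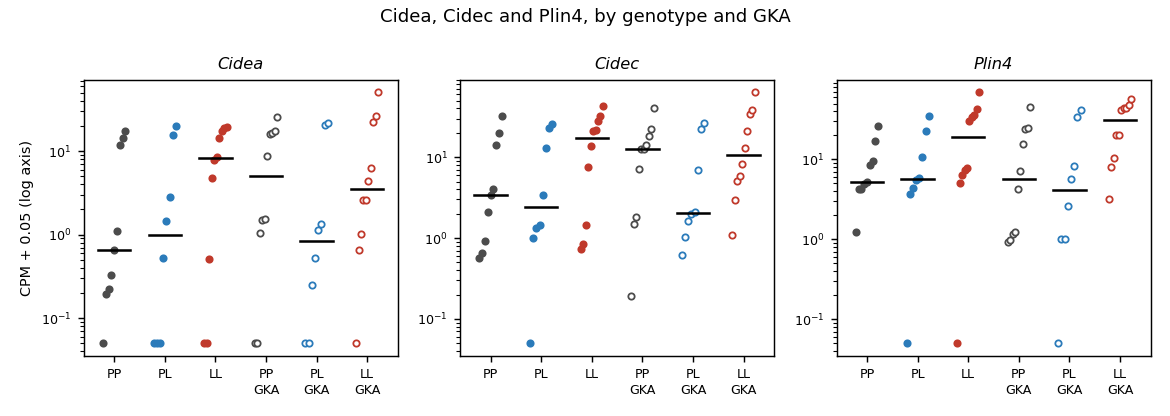
CPM + 0.05 on a log axis of Cidea, Cidec and Plin4 in each of the 55 livers, by genotype and GKA (filled points without, open points with GKA), with a bar at the group median; points at the bottom have 0 reads. In every group each gene has livers above 10 CPM, and the lowest livers lie at 0 to 3.15 CPM.

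Plin2 (chromosome 4, 86565912 to 86588459, minus strand), the coat protein of most liver droplets, ran from 473 to 1289 CPM over the 55 livers. Without GKA the LL median was 716 CPM, the PL median 740 CPM and the PP median 606 CPM, and with GKA they were 934, 744 and 769 CPM. The groups overlapped throughout. By LL genotype over both arms the log2 fold change of Plin2 had a 95% interval of -0.06 to 0.37.

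Plin5 (chromosome 17, 56418446 to 56424610, minus strand), the perilipin that ties droplets to mitochondria, had medians of 26.6 to 37.6 CPM in the 6 groups and 15.9 to 60.3 CPM in single livers. Hsd17b13 (chromosome 5, 104103306 to 104125281, minus strand), a droplet enzyme of the hepatocyte, had group medians of 252 to 317 CPM and 150 to 455 CPM in single livers. Cideb (chromosome 14, 55991507 to 55996099, minus strand), the CIDE gene of normal liver, which also takes part in building lipoprotein particles, had group medians of 227 to 248 CPM, the narrowest of the 10 genes. By LL genotype over both arms the 95% intervals were -0.10 to 0.33 for Plin5, -0.17 to 0.30 for Hsd17b13 and -0.15 to 0.18 for Cideb.

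**Figure D4:**
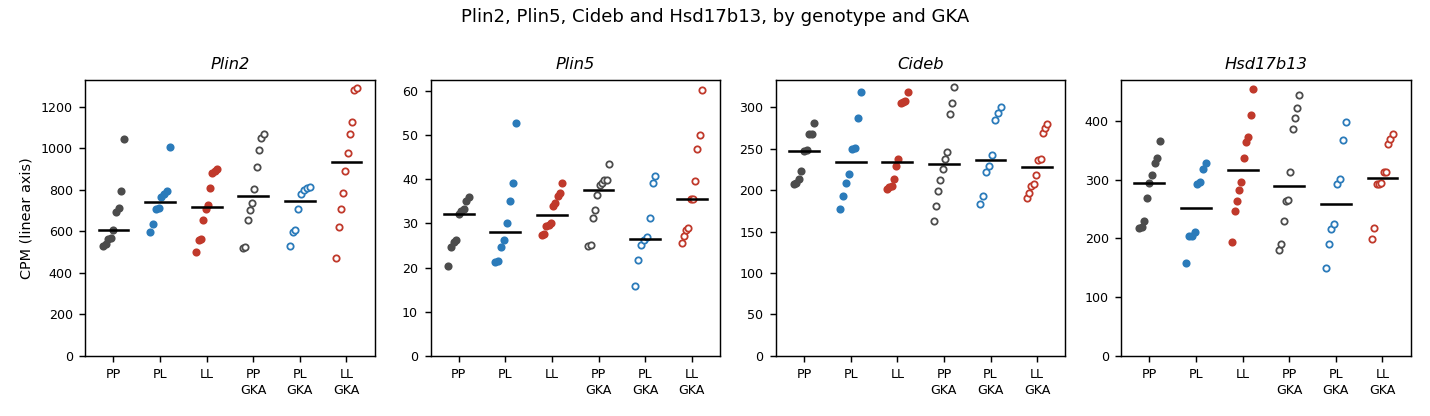
CPM (linear axis from 0) of Plin2, Plin5, Cideb and Hsd17b13 in each of the 55 livers, by genotype and GKA (filled points without, open points with GKA), with a bar at the group median. All groups overlap, and no liver is at 0.

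GKA gave no call among the 10 genes. By edgeR and by DESeq2 0 of them were called in PP, in PL or in LL, or over the genotypes, and edgeR called 0% of all genes in each of these comparisons. Over all genes 376, 331, 643 and 607 had an unadjusted p below 0.05 in PP, in PL, in LL and over the genotypes, and DESeq2 called 0, 1, 6 and 1. At an unadjusted p below 0.05 stood Lipe in PL (-0.35, SE 0.16), Plin2 in LL (0.37, SE 0.16) and Plin2 over the genotypes (0.19, SE 0.09), with edgeR adjusted p of 0.999, 0.793 and 0.929. For Pnpla2 the 95% interval of the GKA difference over the genotypes was -0.18 to 0.14, for G0s2 -0.13 to 0.45 and for Cidea -0.61 to 1.49. The GKA effect was tested for a difference between LL and PP and between PL and PP, and 0 of the 10 genes and 0% of all genes were called by edgeR in either test (0 of the 10 also by DESeq2, which called 1 and 3 of all genes, while 643 and 374 had an unadjusted p below 0.05 by edgeR). In the first 0 and in the second 1 of the 10 had an unadjusted p below 0.05, Lipe, with -0.51 (SE 0.23, edgeR adjusted p = 1).

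Among 24 other tested genes of lipid droplets and lipolysis, of 27 listed, 4 were called by LL genotype over both arms. Ddhd2, a lipase of the DDHD family, rose (0.48, SE 0.10), as did Fitm2 (0.38, SE 0.09), which takes part in the budding of droplets. Acsl3, an acyl-CoA synthetase of growing droplets, fell (-0.65, SE 0.16), as did Pnpla3, a droplet protein related to Pnpla2 (-1.35, SE 0.40). Acsl3 was also called in LL against PP with GKA (-0.73, SE 0.12). The 24 had a median log2 fold change of -0.00, beside 0.00 for all genes. Of 14 lipogenesis genes 3 fell, Acly (-0.99, SE 0.24), Elovl6 (-0.85, SE 0.24) and again Pnpla3, and the median was -0.40. Of 18 PPAR-alpha targets 0 were called by edgeR and 5 had an unadjusted p below 0.05, all higher, led by Cpt1a (0.32, SE 0.08, edgeR adjusted p = 0.0108, under the fold limit), Creb3l3 (0.21, SE 0.06) and Acadl (0.14, SE 0.06). Of 8 PPAR-gamma storage genes 0 were called and 2 had an unadjusted p below 0.05, Gpat3 (0.73, SE 0.26) and Cfd (1.09, SE 0.50). Of all genes tested over both arms, 16.0% had an unadjusted p below 0.05 by LL genotype and 14.1% by PL genotype. Of 16 clock genes 6 were called by LL genotype, Bhlhe41 and Dbp higher and Npas2, Cry1, Bmal1 and Nfil3 lower. By PL genotype over both arms 6 clock genes were called higher and 4 lower, where 1.05% of all genes were called. In PL against PP without GKA, Cry2 (0.54, SE 0.10) and Per3 (1.38, SE 0.27) were called higher, where 0.151% of all genes were called. Of 8 macrophage genes 0 were called and 0 had an unadjusted p below 0.05 by LL genotype. Over both arms 1 of them was lower by PL genotype and 2 were higher in LL against PL at that threshold, with 0 called. With GKA over the genotypes all 8 were higher, 2 of them at an unadjusted p below 0.05 and 0 called. Of all genes 8.82% were below 0.05 in LL against PL and 5.29% with GKA. Of 3 blood genes 2 were higher by LL genotype, and of 6 stellate cell and fibroblast genes 3 were lower by PL genotype over both arms, at an unadjusted p below 0.05 and with 0 called. At the same threshold Sox9, the bile duct gene that could be tested of 4, was lower by LL (-0.60, SE 0.21) and by PL genotype (-0.48, SE 0.23). Adrb3, the fat-cell gene that could be tested of 5, was higher by PL genotype (0.56, SE 0.26), with 0.36 (SE 0.25) by LL genotype. The part of these genes in the results was not tested.

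From liver to liver within the groups, some of the 10 genes moved together. After subtracting each group's mean from log2 CPM, 15 of the 45 pairs had an adjusted permutation p below 0.05 over the 55 livers, 14 positive and 1 negative. The largest correlation was that of Cidea with Cidec (Pearson r = 0.92, Spearman rho = 0.92, adjusted permutation p = 7.5e-05 and 9e-05, from 1e-05, the smallest that 100000 permutations can give). Without the 2 livers farthest from the median of Cidea, r was 0.91. Hsd17b13 went with Cidea (r = 0.78, rho = 0.79, adjusted permutation p = 7.5e-05, r = 0.77 without the 2 livers) and with Cidec (r = 0.77, rho = 0.79, adjusted permutation p = 7.5e-05, r = 0.76 without the 2). Plin2 went with Cidea (r = 0.65, rho = 0.66, adjusted permutation p = 7.5e-05, r = 0.63 without the 2). Plin4 went with Cidec (r = 0.60, rho = 0.65, adjusted permutation p = 7.5e-05, r = 0.58 without the 2) and, as the 1 negative pair, against Cideb (r = -0.52, rho = -0.55, adjusted permutation p = 0.00107, r = -0.45 without the 2).

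Lipe had an adjusted permutation p below 0.05 with Pnpla2 alone of the other 9 genes (r = 0.37, rho = 0.30, adjusted permutation p = 0.0328 and 0.108, r = 0.29 without the 2 livers), a relation that Spearman's rho did not carry past the threshold. G0s2 had none, and with Pnpla2, the lipase it inhibits, r was -0.05 (rho = -0.00, adjusted permutation p = 0.816, r = -0.08 without the 2). Pnpla2 with Cidec had r = 0.41 (rho = 0.37, adjusted permutation p = 0.0118, r = 0.35 without the 2).

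Against the means of gene lists, with the 10 genes left out of the lists, 27 of 50 relations had an adjusted permutation p below 0.05, 23 positive and 4 negative. Cidec went with the PPAR-gamma storage list (r = 0.96, rho = 0.97, adjusted permutation p = 8.33e-05, r = 0.96 without the 2 livers), as did Cidea (r = 0.92, rho = 0.93, the same adjusted permutation p, r = 0.91 without the 2). With the macrophage list r was 0.58 for Cidec, 0.56 for Cidea and 0.52 for Plin4 (rho = 0.62, 0.55 and 0.51, adjusted permutation p = 8.33e-05, 0.00025 and 0.000458), and 0.65, 0.52 and 0.46 without the 2. Pnpla2 went with the clock component (r = 0.72, rho = 0.70, adjusted permutation p = 8.33e-05, r = 0.68 without the 2), and Lipe did so less closely (r = 0.40, rho = 0.31, adjusted permutation p = 0.0144 and 0.065, r = 0.34 without the 2). Cideb also went with it (r = 0.49, rho = 0.52, adjusted permutation p = 0.00266, r = 0.50 without the 2). Lipe went against lipogenesis (r = -0.33, rho = -0.33, adjusted permutation p = 0.0335 and 0.0375, r = -0.34 without the 2). Plin5 went with the PPAR-alpha targets (r = 0.39, rho = 0.43, adjusted permutation p = 0.0134, r = 0.39 without the 2) and Plin2 with lipogenesis (r = 0.48, rho = 0.46, adjusted permutation p = 0.000714, r = 0.41 without the 2). Neither relation was particular to its gene. Cidec (r = 0.58), Hsd17b13 (0.54), Plin4 (0.53) and Cidea (0.53) had a larger r with the PPAR-alpha targets than Plin5. Cideb went against these targets (r = -0.33). With lipogenesis Cidea had r = 0.49 and Cidec 0.43. The adjusted permutation p of r was below 0.05 in each of these relations.

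**Figure D5:**
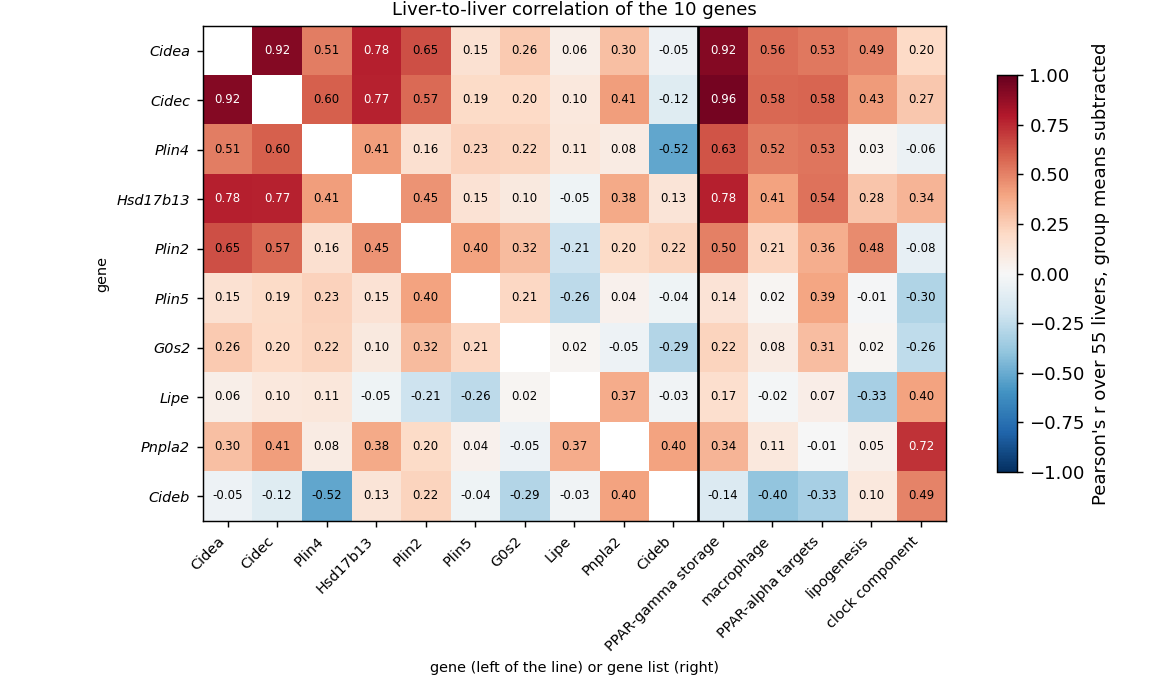
Pearson's r over the 55 livers, after subtracting group means, between each of the 10 genes (rows) and the others (left of the line) or the mean of a gene list (right of the line), printed in each cell and coloured from -1 (blue) to 1 (red). Cidea, Cidec, Plin4, Hsd17b13 and Plin2 have positive values with one another, the lowest 0.16 (Plin2 with Plin4), and with the PPAR-gamma storage list. G0s2 and Pnpla2 are also positive with each of them and with that list (0.22 and 0.34). Pnpla2 has its largest r, 0.72, with the clock component.

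The genes most like each of the 10 were sought among 7836 others with a mean of at least 5 CPM, as a description. The 3 with the highest r were Anxa2 (0.92), Anxa5 (0.91) and Ly6d (0.89) for Cidea and Anxa2 (0.94), Lgals1 (0.91) and Atp9a (0.91) for Cidec. They were S100a10 (0.80), Aldh1a7 (0.76) and Arsg (0.75) for Plin2, Rock2 (0.73), Plekha1 (0.72) and Abhd2 (0.72) for Plin4, and Wfdc2 (0.87), Idh2 (0.82) and Selenop (0.80) for Hsd17b13. Pnpla2 was most like the clock-output gene Dbp (0.73), Pcsk4 (0.71) and Ppif (0.69), and Lipe was most like the peroxisomal thiolase gene Acaa1a (0.64), Ngef (0.56) and Gna12 (0.56). For Cideb they were Pcbd1 (0.92), Txn2 (0.91) and Cox4i1 (0.90), for G0s2 Inhbe (0.57), Epha2 (0.56) and Gm29966 (0.48), and for Plin5 Ldha (0.55), Trp53inp2 (0.51) and Cdkn1a (0.51).

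Reads were also split over transcripts. All or nearly all reads fell on 1 transcript for G0s2 (100%), Cidea (100%), Cideb (99.9%) and Hsd17b13 (99.9%). Of the Pnpla2 reads 73.7% fell on Pnpla2-201, which GENCODE vM39 types as nonsense-mediated decay, and 11.5% on the coding Pnpla2-202. The share on Pnpla2-201 ran from 0 to 100% between livers. Lipe reads fell on the coding Lipe-202 (42.0%), Lipe-201 (34.2%) and Lipe-208 (18.2%), each from 0 to between 90.6% and 100% in single livers with at least 30 reads. Plin4 and Plin5 each had 2 coding transcripts, and the larger share was 55.4% on Plin4-201 and 70.7% on Plin5-201. Estimates that swing from 0 to 100% between livers of 1 group do not resolve these transcripts, so only gene sums were compared. In GENCODE vM39 the exons of G0s2 overlap those of Lamb3 (median 3.73 CPM), those of Cideb overlap Nop9 (10.4 CPM) and those of Lipe overlap 4732471J01Rik (0.14 CPM), each on the other strand. The strand setting of the reads is not given in the sources used here.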

How the data were processed

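Liver RNA of 56 mice was sequenced by the authors (RIN above 6). According to the study's methods and the processing notes, reads were checked with FastQC and assigned with Salmon 1.4.0 to the GENCODE M26 transcripts (GRCm39), without trimming. The deposited values are estimated counts and TPM per transcript, 139225 in each file. Of these, 137570 were matched to a gene of GENCODE vM39 (at least 99.8% of reads), their estimated counts were summed per gene and rounded, and TPM were summed. Groups came from the labels, and PP mouse 7 was left out as the authors did.

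Genes kept by filterByExpr were tested with the edgeR 4.0.16 quasi-likelihood test (TMM, R 4.3.3), Benjamini-Hochberg adjusted over all genes tested. There were 9 pairwise fits on the groups compared, 4 contrasts from 1 fit of genotype and GKA, and 2 interactions. A call needed an adjusted p below 0.05 and a fold above 1.3 or below 0.7 (interactions: the adjusted p alone). The edgeR p-values test group differences against the spread between mice, and the permutation p-values test association between livers within groups. Correlations used log2 CPM (prior count 2) and 100000 permutations within groups, two-sided (SciPy 1.17.1, NumPy 2.4.6). On simulated counts the LL against PP fit over both arms recovered 96.4% of genes changed 2-fold and 73.5% of those changed 1.5-fold, and the PL against PP fit without GKA 85.8% and 40.8%. These averages are over genes drawn at random. They say nothing about Cidea, Cidec or Plin4, whose SEs were 0.63, 0.52 and 0.49 in the LL against PP fit over both arms.

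The 10 genes and all lists were chosen with earlier results of these data known. Named genes are the 10, Gckr, called list genes (otherwise the 3 smallest p of a list) and the 3 genes most like each of the 10, and a log2 fold change of the 10 is given where its unadjusted p was below 0.05, or as an interval otherwise. Alternatives were DESeq2 1.42.0, RLE scaling, no filter, mouse 7 kept, all 6 groups in 1 fit, a transcript length offset, the clock covariate (1 of its fits also with each liver left out) and each liver left out.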

Additional observations from a re-analysis of the deposited data

Results flagged for a closer look

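In LL with GKA, mouse 48 had 50.4 CPM of Cidea, and the next highest liver of that group had 26.0 CPM. Its gap to that liver was larger than Dixon's 95% critical value allows for 10 samples. It was the only such value among 60 groups of values (10 genes in 6 groups), and chance alone gives about 1 in 20.

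PP mouse 7, which entered no comparison, had 31.1 CPM of Plin4, above the highest of the other PP livers (26.3 CPM), and 425 CPM of Hsd17b13, above their highest (372 CPM). Its Lipe (3.11 CPM) and Cideb (166 CPM) lay below the range of the other PP livers, and its other 6 genes lay within it. Here CPM was scaled over all 56 livers.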

How the results depend on the processing

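No result reversed. Of 95 counts of called genes under alternatives (15 comparisons), 88 stayed within 1.5 times the main count. Most of these comparisons had a main count of 0, and counts that stayed at 0 are among the 88. A fall from 3 to 2 also lies within this limit, so the 88 say little about how stable the calls are. By LL genotype over both arms the count of 3 became 1 with the clock covariate (G0s2) and 0 with the transcript length offset, and the PL count of 1 became 0 with either. Calls over all genes with the covariate or the offset are not given here for comparison. With the offset the adjusted p was 0.0532 for G0s2, 0.57 for Lipe and 0.329 for Pnpla2, with log2 fold changes of 0.75, 0.58 and 0.48, and without a filter it was 0.0776 for G0s2. In PL against PP without GKA the count of 1 became 0 with the offset (Lipe 1.10, adjusted p = 0.549). In LL against PP without GKA the count of 0 became 1, Lipe, with DESeq2 and with all 6 groups in 1 fit (adjusted p = 0.0208 and 0.0373). With the clock component computed from the 17 livers compared, an alternative added after seeing the data, the Lipe difference was 1.16 (adjusted p = 0.0234). The cause was not tested. Over all genes DESeq2 called 111 against 9 by edgeR in LL against PP, 71 against 16 in PL against PP and 22 against 1 in LL against PL without GKA, and 92 against 25 in LL against PP with GKA. Leaving out each liver in turn gave 2 to 3 called genes by LL genotype over both arms and 1 in both PL comparisons. Lipe and Pnpla2 kept their LL call in all 55 such fits, and Lipe its PL calls in all 55 and all 17. The count of 15 correlated pairs was 15 with DESeq2 size factors and 14 with mouse 7 kept. Leaving out livers with fat-cell RNA was not run, since the summed CPM of Adipoq, Plin1, Lep and Retn reached only 0.18, under the limit of 1. No paired analysis was possible because each mouse has a number of its own. Lipe, at 25 to 129 reads a liver, and Cidea, at under 3 reads in 16 livers, are limited by depth.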
